A study of Caenorhabditis elegans with 10 samples.

Results

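Hibernating *C. elegans* were described here by the transcripts whose level at 4°C stayed apart from their level in the warm for as long as the animals were followed. Total RNA was measured in whole wild-type (N2) animals of 5 conditions with 2 biological replicates each, and 1 column of values is given per condition. Animals were grown from larvae on *E. coli* OP50 at 20°C to young adulthood and collected at that temperature, after a step at 10°C, or on day 1, day 3 or day 5 at 4°C. The step at 10°C lasted 2 hr by the protocol and 3 hr by the treatment labels, and the day 5 samples carry a treatment label of 3 days. The 3 columns from 4°C formed one group and the columns from 20°C and 10°C the other. The unit is FPKM (fragments per kilobase of transcript, scaled for sequencing depth), each gene was given the value of its most abundant transcript by the mean of the columns, and 10509 of 19985 genes reached an FPKM of 1 or more in any column. A gene was taken as lastingly different when its lowest value in one group exceeded its highest value in the other. By this rule 2150 genes (20.5%) were higher at every day of 4°C, 4249 genes (40.4%) were lower at every day, and in 4110 genes the groups overlapped.

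Cold slows enzymes, stiffens membranes and halts growth and egg laying in this animal, and a gradual cooling lets it survive near freezing in a dormant state. Membrane fluidity is known to depend on fatty acid desaturases, on the length and branching of acyl chains and on the supply of phosphatidylcholine, a major membrane phospholipid. The cells are known to react to damaged proteins and lipids through the heat shock response in the cytosol and the unfolded protein response of the endoplasmic reticulum (ER), in which the sensor IRE-1 splices the mRNA of the transcription factor XBP-1. The intestine is the main site of fat storage, detoxification and yolk synthesis, and the adult hermaphrodite also carries a germ line and, in its uterus, young embryos.

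The distance between the nearest values of the 2 groups, on the scale of log2(FPKM + 0.1), is called the gap below. The gap was at least 2-fold in 284 of the higher genes (2.7% of all) and in 443 of the lower genes (4.22% of all), at least 4-fold in 99 and 81, and at least 8-fold in 47 and 19. The median gap was only 0.20 over the 2150 higher genes and 0.27 over the 4249 lower genes, so most of the lasting differences were small. Nearest to the limit of 2-fold stood *C08G9.1* (gap 1.00) inside and *ampd-1* (0.9994) outside among the higher genes, and *T01D1.3* (1.00) inside and *clec-53* (0.9995) outside among the lower genes. Of the 284 higher genes, 148 had an FPKM below 1 at both 20°C and 10°C and so passed the filter only through 4°C, while 257 of the 443 lower genes were below an FPKM of 1 on all days at 4°C. Over genes of any gap, 670 of the 10509 passed the filter only through the warm columns and 508 only through those at 4°C, and since this favours their direction, counts in gene lists are also given for members that reached an FPKM of 1 in both groups where many members did not. Of the 9331 genes that did, 1794 were higher and 3630 lower at every day.

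Each column holds between 70741449 and 85103831 reads on transcripts, and the columns carry no spread between replicates, so no test of these differences could be made. Counting error alone gave 95% Wilson limits that were apart in 275 of the 284 and 440 of the 443 genes with a gap of at least 2-fold, but in only 1184 of the 2150 and 2635 of the 4249 genes of any gap. The gap was also set against the range over the days at 4°C and the difference between 20°C and 10°C. It exceeded both in 222 of the 284 (78.2%) and 326 of the 443 (73.6%). The same gap had chosen these genes, which favoured high shares, so no support is drawn from them. The median gene was lower at 4°C than in the warm by a log2 difference of -0.105. With each column centred on its median, 3084 genes were higher and 2922 lower at every day, so that the share of higher genes among both was 51.3% in place of 33.6%. The warm animals were collected at the start, and temperature, time and age cannot be told apart. In whole animals, fewer cells of a type and less RNA per cell cannot be told apart either.

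**Figure D1:**
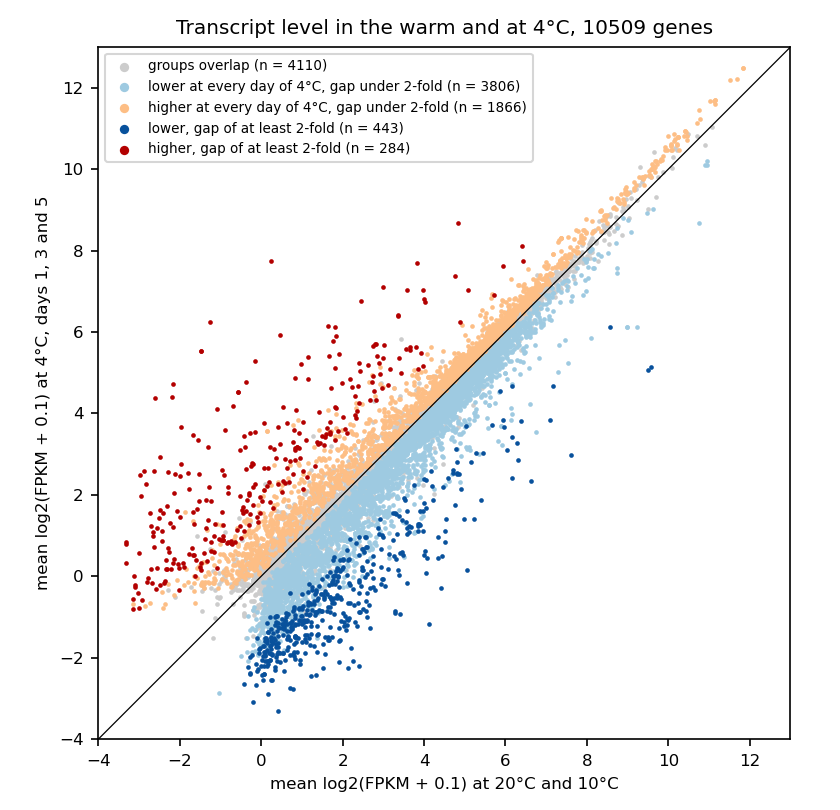
Mean log2(FPKM + 0.1) at 20°C and 10°C (horizontal axis) against the mean over the 3 days at 4°C (vertical axis), 1 point per gene, coloured by class, with the line of equal level. The 284 higher genes with a gap of at least 2-fold (dark red) lie mostly at low levels in the warm, and the 443 lower genes (dark blue) lie mostly at low levels at 4°C.

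The genes with a gap of at least 2-fold followed different courses. Relative to 10°C, the 284 higher genes had a median log2 ratio of 2.13 on day 1, 2.56 on day 3 and 2.14 on day 5, and 160 of them (56.3%) were highest on day 3, against 20.2% of all genes. Between day 1 and day 5, 144 stayed within 1.5-fold, 71 were at least 1.5-fold higher on day 5 and 69 were at least 1.5-fold lower. The 443 lower genes kept moving away, with median log2 ratios of -1.57 on day 1, -2.10 on day 3 and -2.51 on day 5, and 318 of them (71.8%) were lowest on day 5, against 40.0% of all genes. On day 5, 275 of them (62.1%) were at least 1.5-fold below day 1, against 20.6% of all genes.

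The step at 10°C already showed a difference in a part of both sets. Of the 284 higher genes, 68 (23.9%) were at least 1.5-fold higher at 10°C than at 20°C, against 3.03% of all genes, and 5 were lower by as much. Of the 443 lower genes, 97 (21.9%) were at least 1.5-fold lower at 10°C, against 3.11% of all genes, and 11 were higher by as much. Because 10°C lies in the warm group, such genes have a smaller gap than their distance from 20°C.

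**Figure D2:**
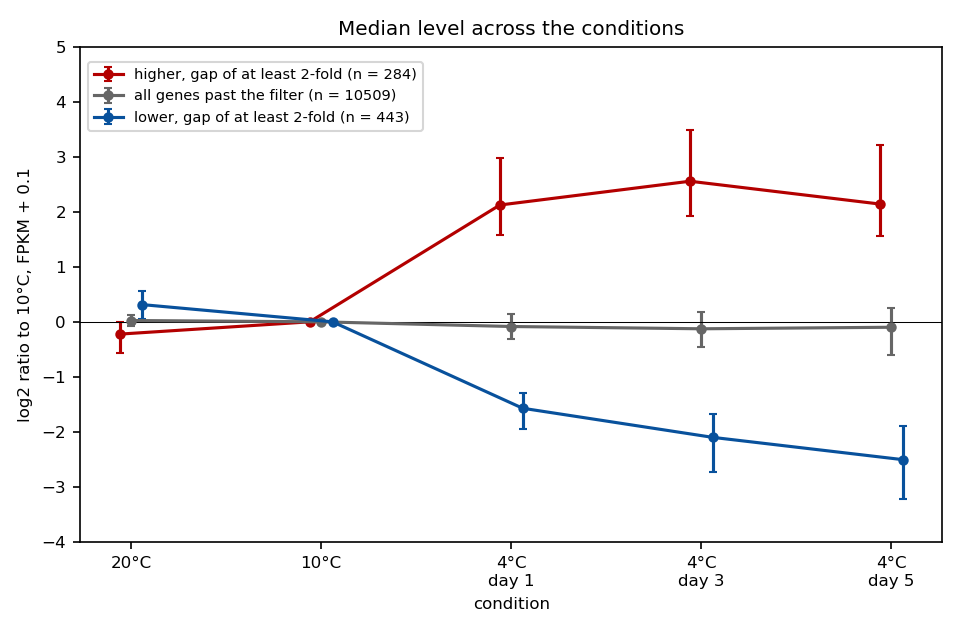
Log2 ratio to 10°C of FPKM + 0.1 in the 5 conditions (points: medians over genes, bars: lower to upper quartile). The median of the 284 higher genes stands at 2.13, 2.56 and 2.14 on days 1, 3 and 5, while that of the 443 lower genes moves down from -1.57 to -2.51 and the median of all 10509 genes reaches no lower than -0.13.

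Among the genes with the largest gaps upward were an F-box gene, a pair of metal-response genes and members of a lipase-like family. *fbxa-163*, which encodes an F-box protein of the kind that hands substrates to ubiquitin ligases, had an FPKM of 0.0610 at 20°C, 0.0676 at 10°C, and 21.3, 19.1 and 21.5 on days 1, 3 and 5 at 4°C. Its 95% counting limits at 10°C were 0.0327 to 0.140 and its values at 4°C hardly differed among the days. The sequence-named *F19B10.13*, a gene with a single exon of 345 bases, reached an FPKM of 199, 181 and 270.2 on the 3 days at 4°C, against 0.620 at 20°C and 1.84 at 10°C. The gaps were 6.84 for *fbxa-163* and 6.55 for *F19B10.13*, and the gap of *fbxa-163*, whose values in the warm are below the pseudocount of 0.1, understates its distance in FPKM. The 15 largest gaps upward were between 4.16 (*M60.7*) and 6.84, and none of the 15 genes had an FPKM over 2 in the warm.

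**Figure D3:**
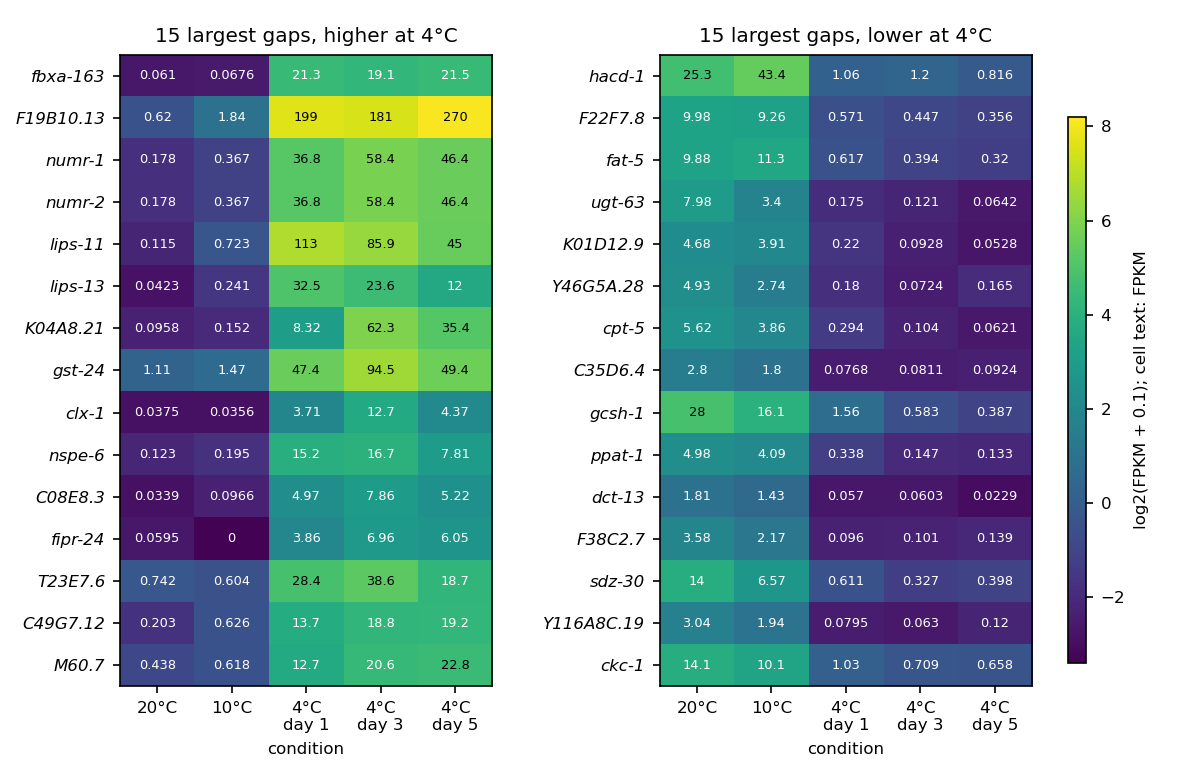
FPKM in each condition (cell text) of the 15 genes with the largest gaps in each direction among genes with at least 100 reads, coloured by log2(FPKM + 0.1). In the left panel all values at 20°C and 10°C lie below 2 FPKM and those at 4°C lie above 3, and in the right panel the 3 columns from 4°C are below 2 in every gene.

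The metal-response genes *numr-1* and *numr-2*, known to be induced by cadmium, had identical values, an FPKM of 0.178 at 20°C, 0.367 at 10°C, and 36.8, 58.4 and 46.4 on days 1, 3 and 5 at 4°C, and reads from these near-identical copies cannot be told apart. Their gap was 6.303. The metallothionein gene *mtl-1* was at an FPKM of 18.5, 90.6 and 45.3 on the 3 days at 4°C, against 3.91 at 20°C and 2.40 at 10°C, with its highest level on day 3, while *mtl-2*, the other metallothionein gene, had an FPKM of 167 at 20°C, 155 at 10°C, and 136, 84.8 and 103.8 on days 1, 3 and 5 at 4°C and was lower at every day. The superoxide dismutase gene *sod-5*, at an FPKM of 1.15, 1.06 and 0.941 on the 3 days at 4°C, against 0.0713 at 20°C and 0.0677 at 10°C, was at low levels throughout. In the list of 29 measured genes of metal and oxidative stress, 14 were higher (4 with a gap of at least 2-fold) and 4 lower at every day, and the median log2 difference was 0.20, against -0.105 over all genes.

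Of 31 glutathione S-transferase genes, which couple glutathione to reactive compounds in detoxification, 13 (41.9%) were higher and 12 (38.7%) lower, against 20.5% and 40.4% of all genes, with gaps of at least 2-fold in 4 and 3. *gst-24* had an FPKM of 1.11 at 20°C, 1.47 at 10°C, and 47.4, 94.5 and 49.4 on days 1, 3 and 5 at 4°C, and *gst-4*, a common reporter of oxidative stress, had an FPKM of 7.11 at 20°C, 6.21 at 10°C, and 25.5, 53.2 and 20.4 on days 1, 3 and 5 at 4°C. Both were highest on day 3 and clear of the warm columns on each day. *gst-28* was on the other side, at an FPKM of 0.782, 0.482 and 0.314 on the 3 days at 4°C, against 3.49 at 20°C and 2.57 at 10°C. The flavin monooxygenase gene *fmo-2* (gap 3.67), the nitrilase-family gene *nit-1* (3.85), the cysteine synthase-like gene *cysl-2* (2.57) and the cysteine dioxygenase gene *cdo-1* (1.39) also had gaps of at least 2-fold upward, and these 4 were named after their values were seen. *cysl-2* was the most abundant of these, with an FPKM of 10.8 at 20°C, 9.47 at 10°C, and 64.6, 106 and 85.0 on days 1, 3 and 5 at 4°C.

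A cluster of lipase-related genes on chromosome II was higher as a whole. *lips-11*, *lips-12* and *lips-13* lie next to each other within 9.2 kb on the minus strand (WBcel235, chrII:1108841-1118042). *lips-11* had an FPKM of 0.115 at 20°C, 0.723 at 10°C, and 113, 85.9 and 45.01 on days 1, 3 and 5 at 4°C, with 95% counting limits of 0.553 to 0.945 at 10°C and 43.4 to 46.7 on day 5. *lips-13* had an FPKM of 0.0423 at 20°C, 0.241 at 10°C, and 32.5, 23.6 and 11.98 on days 1, 3 and 5 at 4°C. The gaps were 5.78, 3.03 and 5.15 for *lips-11*, *lips-12* and *lips-13*, and the level of each was highest on day 1 and lowest of the cold days on day 5. Of the 11 measured genes of the lips and lipl families, 4 (36.4%) were higher at every day, against 20.5% of all genes. Lower were 2 (18.2%, against 40.4% of all genes), *lipl-1* and *lipl-5* with gaps of 0.78 and 0.12. Of the 11, 3 passed the filter only through 4°C and 2 only through the warm columns. Of the 6 that reached an FPKM of 1 in both groups, 1 was higher and 1 lower. The study followed *lips-11* mRNA, and mRNAs taken as readouts of IRE-1, by RT-qPCR, and 3 of its primer pairs are shown to identify what was amplified, all in lower case because no base is singled out. The genes lie on chromosomes II, V and X.
lips-11 forward: accattgtccaagcggagtt
lips-11 reverse: agagggactcttcttgtttgagt
srp-7 forward: ctcagatctcgtcgctgttc
srp-7 reverse: gattttctccatgcctccagtg
C36B7.6 forward: cttccagtccctcattgtcttc
C36B7.6 reverse: gaaccaatccgattcttggcg

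The other readouts differed in how far they stood apart. *srp-7*, which encodes a serpin (a protease inhibitor), had an FPKM of 74.1 at 20°C, 96.1 at 10°C, and 308, 262 and 265 on days 1, 3 and 5 at 4°C, and its gap was 1.45. *C36B7.6* had an FPKM of 9.31 at 20°C, 8.998 at 10°C, and 13.6, 16.7 and 15.2 on days 1, 3 and 5 at 4°C (gap 0.54), and *dnj-27*, an ER thioredoxin with a J domain, had a gap of only 0.12. *srp-7* was thus the only one of these 3 with a gap of at least 2-fold. In *hsp-4*, the BiP chaperone of the ER, the groups overlapped, with an FPKM of 162 at 20°C, 180.3 at 10°C, and 281, 145 and 157 on days 1, 3 and 5 at 4°C. It was higher than in the warm on day 1 alone. Groups overlapped also in *xbp-1* and in *atf-6*, an ER stress sensor, while the sensor gene *ire-1* was lower at every day by a gap of 0.27 and *pek-1*, the third sensor, was higher by 0.29. Over the 29 measured genes of ER folding and stress, 10 (34.5%) were higher and 9 (31%) lower at every day. The shares of all genes were 20.5% and 40.4%. None of the 29 had a gap of at least 2-fold, and with centred columns the counts were 14 and 6.

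Lists of genes that other work placed under IRE-1 were also compared. Of 31 measured genes found dependent on *ire-1* in an earlier cooling study, 17 were higher and 3 lower at every day. Gaps of at least 2-fold were found in 11 and 0. As 10 of the 31 passed the filter only through 4°C, the filter favoured this direction. Of the 20 that reached an FPKM of 1 in both groups, 9 were higher and 2 lower. That list held genes raised by cold in the earlier study, so its direction is no independent result. Of 126 genes linked to *ire-1* under lipid stress, 60 were higher and 20 lower, with gaps of at least 2-fold in 19 and 4. Of 121 genes linked to it under tunicamycin, which blocks glycosylation in the ER, 31 were higher and 35 lower, 8 and 0 by at least 2-fold. The medians of the 3 lists were 0.86, 0.45 and -0.05 in log2 difference, against -0.105 over all genes. The filter favoured the lists unequally, so their medians are not ranked.

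Transcription factors with lasting differences included known cold regulators. *zip-10*, a bZIP factor known from cold-induced death, had an FPKM of 0.358 at 20°C, 2.26 at 10°C, and 15.5, 14.5 and 10.9 on days 1, 3 and 5 at 4°C (gap 2.21). *cebp-1*, a C/EBP factor, had an FPKM of 2.19 at 20°C, 4.49 at 10°C, and 14.1, 11.1 and 10.1 on days 1, 3 and 5 at 4°C, and *pqm-1*, a zinc finger factor of stress and development, had an FPKM of 4.98 at 20°C, 9.84 at 10°C, and 65.7, 60.8 and 34.6 on days 1, 3 and 5 at 4°C. The 3 genes were already higher at 10°C than at 20°C and higher again at 4°C. *atf-4*, a bZIP factor that acts when translation initiation is inhibited, was lower, at an FPKM of 2.81, 3.33 and 2.69 on the 3 days at 4°C, against 13.8 at 20°C and 10.3 at 10°C. Of 22 bZIP genes, 6 were higher and 6 lower, 27.3% each, against 20.5% and 40.4% of all genes. In each direction 2 had a gap of at least 2-fold, the lower pair being *atf-4* and *zip-3*. *hsf-1*, the master regulator of the heat shock response, was lower by a gap of 0.08, which became an overlap with centred columns. *asp-17*, an aspartyl protease gene known as a target of *zip-10*, had an FPKM of 1.92 at 20°C, 2.33 at 10°C, and 27.04, 35.6 and 24.3 on days 1, 3 and 5 at 4°C, in contrast to other proteases of this class described below.

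Besides the lipase cluster, the longest run of higher neighbours held *kreg-1* and 4 sequence-named genes on chromosome X (chrX:8709764-8718904). *kreg-1*, known from resistance to cold, had an FPKM of 0.849 at 20°C, 3.22 at 10°C, and 42.8, 30.005 and 19.3 on days 1, 3 and 5 at 4°C. *F53A9.8* was the most abundant of the run, with an FPKM of 15.4 at 20°C, 12.99 at 10°C, and 126, 246 and 281 on days 1, 3 and 5 at 4°C. *kreg-1* was highest on day 1, whereas *F53A9.1* and *F53A9.8* were highest on day 5 and *F53A9.6* and *F53A9.7* on day 3, so the neighbours shared the direction but not the course. In all, 21 of the 284 higher genes lay in 6 runs of at least 3 neighbours and 26 of the 443 lower genes in 8 runs. Further runs of higher genes were *F56D6.9*, *F56D6.8* and *dct-8* on chromosome IV, *C54F6.15*, *C54F6.6* and *C54F6.5* and, further along, *C08E8.10*, *C08E8.3* and *C08E8.4* on chromosome V, and *Y47H10A.5* with *rrf-2*, *M01G12.14* and *M01G12.9* on chromosome I. In *C54F6.6* no read was found in either warm column, and its lowest value at 4°C was at least 4.05-fold higher than the floor of 3 counts per column.

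Chaperones of the cytosol were mostly higher. Of 30 measured genes, 22 were higher and 2 lower at every day (23 and 1 with centred columns), 5 and 1 by at least 2-fold, with a median log2 difference of 0.44. Of the 23 that reached an FPKM of 1 in both groups, 16 were higher and 1 lower. *hsp-17*, a small heat shock protein, had an FPKM of 15.4 at 20°C, 16.1 at 10°C, and 64.3, 276 and 123 on days 1, 3 and 5 at 4°C. *hsp-12.6*, another member of this class known as a target of DAF-16, had an FPKM of 0.474 at 20°C, 0.404 at 10°C, and 3.27, 17.6 and 29.6 on days 1, 3 and 5 at 4°C and increased in value over the days. The Hsp70 genes *F44E5.4* and *F44E5.5* are near-identical and had nearly the same values, an FPKM of 0.774 at 20°C, 0.416 at 10°C, and 7.90, 35.8 and 42.5 on days 1, 3 and 5 at 4°C for *F44E5.4*. The small heat shock gene *hsp-12.1* was on the other side, at an FPKM of 0.365, 0.283 and 0.146 on the 3 days at 4°C, against 1.17 at 20°C and 1.01 at 10°C. Of the 13 small heat shock genes alone, 9 (69.2%) were higher and 1 (7.69%) lower, against 20.5% and 40.4% of all genes. Of these 13, 3 passed the filter only through 4°C and 1 only through the warm columns. In the 9 measured in both groups, 6 were higher and 0 lower. *hsp-6* and *hsp-60*, the mitochondrial chaperones, overlapped between the groups. Of 12 mitochondrial chaperone and protease genes, 2 (16.7%) were higher and 4 (33.3%) lower, against 20.5% and 40.4% of all genes.

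The autophagy receptor gene *sqst-1* (p62) had an FPKM of 8.14 at 20°C, 12.7 at 10°C, and 81.6, 108 and 71.8 on days 1, 3 and 5 at 4°C. It was the only one of 27 autophagy and lysosome genes with a gap of at least 2-fold. The ubiquitin-like *lgg-1* and *lgg-2*, which coat autophagosomes, were higher by gaps of 0.64 and 0.22, whereas 6 of the subunit genes of the vacuolar proton pump were lower, led by *vha-5* (gap 0.79) and *vha-6* (0.59). In this list 4 genes (14.8%) were higher and 10 (37%) lower, against 20.5% and 40.4% of all genes. With centred columns 10 were higher and 5 lower, so the balance of this list turned with the scaling.

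Signalling and calcium genes were found among the higher genes by their names, after their values were seen. *cex-1*, which encodes a calexcitin-like calcium-binding protein, had an FPKM of 3.02 at 20°C, 3.55 at 10°C, and 30.1, 76.4 and 70.0 on days 1, 3 and 5 at 4°C. *akt-2*, a kinase of insulin signalling, had an FPKM of 2.76 at 20°C, 3.59 at 10°C, and 16.1, 17.04 and 9.33 on days 1, 3 and 5 at 4°C, and *aakg-4*, a regulatory subunit of AMP-activated kinase, had an FPKM of 1.21 at 20°C, 1.51 at 10°C, and 5.03, 5.43 and 4.37 on days 1, 3 and 5 at 4°C. All 3 values at 4°C were clear of both warm values in each of these genes. Gaps of 2.80, 1.57 and 1.296 were found for *ikb-1* (an inhibitor of the NF-κB type), *tent-5* (a cytoplasmic poly(A) polymerase) and *tir-1* (the SARM1 homologue of innate immunity). The galectin genes *lec-2* and *lec-6* had gaps of 1.80 and 1.11. *tre-5*, a trehalase that splits the sugar trehalose, was higher, with an FPKM of 0.397 at 20°C, 0.540 at 10°C, and 4.51, 4.55 and 4.31 on days 1, 3 and 5 at 4°C, while *tre-1* and *tre-2* were lower by 0.63 and 0.74. *tps-1* and *tps-2*, which make trehalose, were higher by 0.42 and 0.30.

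Genes of fat metabolism were found on the lower side. Of 34 measured genes of fatty acid breakdown, 25 were lower and 2 higher at every day, with gaps of at least 2-fold in 7 and 0 and a median log2 difference of -0.88. With centred columns, 19 were lower and 3 higher. *hacd-1*, a 3-hydroxyacyl-CoA dehydrogenase, had the largest gap downward of the genes with at least 100 reads (4.29), with an FPKM of 25.3 at 20°C, 43.4 at 10°C, and 1.06, 1.20 and 0.816 on days 1, 3 and 5 at 4°C. Its 95% counting limits were 24.2 to 26.4 at 20°C and 0.863 to 1.297 on day 1. *cpt-5*, of the carnitine palmitoyltransferases that carry acyl chains into mitochondria, had an FPKM of 5.62 at 20°C, 3.86 at 10°C, and 0.294, 0.104 and 0.0621 on days 1, 3 and 5 at 4°C. *acdh-2*, an acyl-CoA dehydrogenase, had an FPKM of 16.9 at 20°C, 16.3 at 10°C, and 3.32, 0.951 and 0.591 on days 1, 3 and 5 at 4°C. The values of *hacd-1* at 4°C differed little among the days, while *cpt-5* and *acdh-2* were lower still on days 3 and 5.

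Some genes of the peroxisome were also lower. Of 7 acyl-CoA oxidase genes, 5 were lower at every day and in 2 the groups overlapped. The genes *acox-1.2*, *acox-1.3* and *acox-1.4*, whose enzymes shorten the chains of ascaroside pheromones, lie together on chromosome I and had gaps of 1.74, 1.93 and 1.82. *acox-1.4* had an FPKM of 8.64 at 20°C, 7.52 at 10°C, and 2.05, 0.450 and 0.417 on days 1, 3 and 5 at 4°C. *pmp-5*, a peroxisomal ABC transporter, had an FPKM of 21.4 at 20°C, 11.9 at 10°C, and 2.31, 1.27 and 0.786 on days 1, 3 and 5 at 4°C, and 2 genes of peroxisome assembly, *prx-11* and *prx-12*, had gaps of 1.20 and 1.14. The transporter and the assembly genes were named, and the acyl-CoA oxidase genes counted, after their values were seen, and no list of all peroxisomal genes was counted.

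Transcripts of fatty acid synthesis showed the same direction in a narrower set of genes. Of 28 measured genes, none was higher and 16 were lower at every day, 7 with a gap of at least 2-fold, with a median log2 difference of -0.40 (6 higher and 12 lower with centred columns). The 7 include *hacd-1*, which was listed here and under breakdown. *elo-5* and *elo-6*, the elongases of monomethyl branched-chain fatty acids, were abundant in the warm, *elo-6* with an FPKM of 204 at 20°C, 188 at 10°C, and 22.1, 4.83 and 4.27 on days 1, 3 and 5 at 4°C and *elo-5* with an FPKM of 137 at 20°C, 136 at 10°C, and 29.4, 9.71 and 9.97 on days 1, 3 and 5 at 4°C. Both dropped in value again between day 1 and day 3. *elo-2*, a palmitate elongase, had an FPKM of 68.2 at 20°C, 88.6 at 10°C, and 30.1, 4.94 and 5.79 on days 1, 3 and 5 at 4°C. All 7 measured elongase genes, counted after their values were seen, were lower at every day, 4 by at least 2-fold.

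The desaturases that put the first double bond into saturated chains were not alike. *fat-5*, which acts on palmitate, had an FPKM of 9.88 at 20°C, 11.3 at 10°C, and 0.617, 0.394 and 0.320 on days 1, 3 and 5 at 4°C (gap 3.798), and *fat-6*, which acts on stearate, had an FPKM of 77.5 at 20°C, 65.5 at 10°C, and 30.2, 22.2 and 25.1 on days 1, 3 and 5 at 4°C (gap 1.11). The groups overlapped in the polyunsaturated fatty acid genes *fat-4*, *fat-3* and *fat-2*, and *fat-4* for example had an FPKM of 108 at 20°C, 97.8 at 10°C, and 109, 105 and 118 on days 1, 3 and 5 at 4°C. The transcript chosen for *fat-3* has only 234 exon bases. Of the 7 fat genes, 2 were lower and none higher at every day. The overlap was narrow in *fat-3* and *fat-4*, which were higher at every day with centred columns, by gaps of 0.07 and 0.09, and *fat-4* also with sums over its transcripts, by 0.04.

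**Figure D4:**
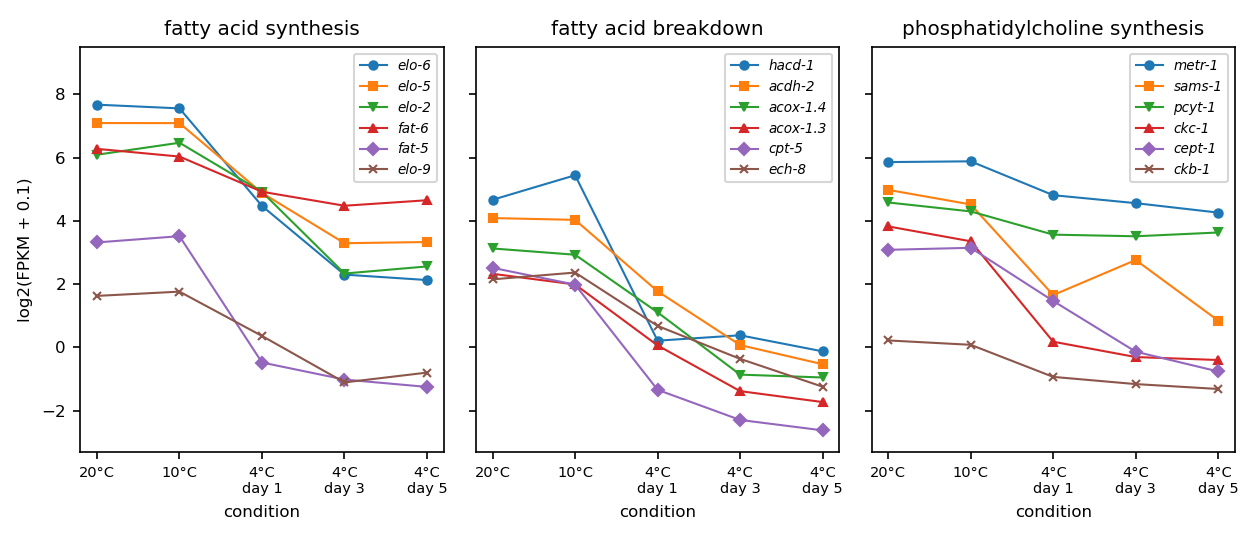
Log2(FPKM + 0.1) across the 5 conditions for 6 genes each of fatty acid synthesis, fatty acid breakdown and phosphatidylcholine synthesis, 1 line per gene. In all 18 genes the 3 values at 4°C lie below both warm values, and *elo-6* moves from 204 and 188 FPKM in the warm to 4.27 on day 5.

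Transcripts of phosphatidylcholine synthesis genes were lower at several steps of the pathway, and synthesis itself was not measured. Of 15 measured genes, 12 were lower and 1 higher at every day (10 and 2 with centred columns), 5 of the lower ones by at least 2-fold, with a median log2 difference of -0.69. *ckc-1*, a choline kinase gene of the first step from choline, had an FPKM of 14.1 at 20°C, 10.1 at 10°C, and 1.03, 0.709 and 0.658 on days 1, 3 and 5 at 4°C. *cept-1*, of the last step, in which choline phosphate is joined to diacylglycerol, had an FPKM of 8.39 at 20°C, 8.77 at 10°C, and 2.66, 0.809 and 0.489 on days 1, 3 and 5 at 4°C. *pcyt-1*, the rate-limiting enzyme between them, was lower by a gap of 0.67, under 2-fold. *sams-1*, which makes the methyl donor S-adenosylmethionine for the other route to phosphatidylcholine, had an FPKM of 31.5 at 20°C, 22.8 at 10°C, and 3.05, 6.69 and 1.70 on days 1, 3 and 5 at 4°C. Its level was lowest on day 5 and higher on day 3 than on day 1. *metr-1*, the methionine synthase of the same cycle, had an FPKM of 58.0 at 20°C, 59.0 at 10°C, and 28.01, 23.5 and 19.1 on days 1, 3 and 5 at 4°C.

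Other genes of one-carbon and amino acid metabolism were named after their values were seen, apart from *gcsh-1*. *gcsh-1*, the H protein of the glycine cleavage system, had an FPKM of 27.99 at 20°C, 16.1 at 10°C, and 1.56, 0.583 and 0.387 on days 1, 3 and 5 at 4°C, and *gldc-1*, the decarboxylase of that system, had an FPKM of 28.6 at 20°C, 27.4 at 10°C, and 10.7, 5.61 and 3.13 on days 1, 3 and 5 at 4°C. Each of the 2 was lower on each later day at 4°C. The folate transporter gene *folt-1*, the polyamine genes *smd-1* and *spds-1* and the kynurenine pathway genes *haao-1* and *afmd-1* had gaps downward of 1.423, 1.57, 1.417, 1.76 and 1.15. *hphd-1*, an enzyme of the propionate shunt, had an FPKM of 84.7 at 20°C, 81.2 at 10°C, and 40.4, 9.45 and 7.01 on days 1, 3 and 5 at 4°C, and *nhr-68*, a nuclear hormone receptor that controls propionate metabolism, had an FPKM of 9.32 at 20°C, 9.51 at 10°C, and 2.31, 1.68 and 0.541 on days 1, 3 and 5 at 4°C.

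Enzyme and secreted protein families of the intestine and cuticle had many lower members. Of 36 UDP-glucuronosyltransferase genes, which attach sugar to toxins, 23 were lower (10 by at least 2-fold) and 4 higher, and of 35 cytochrome P450 genes, which oxidise foreign and steroid compounds, 24 were lower (8 by at least 2-fold) and 3 higher. Among members that reached an FPKM of 1 in both groups, 15 of 26 UDP-glucuronosyltransferase genes and 17 of 27 cytochrome P450 genes were lower. *ugt-63* had an FPKM of 7.98 at 20°C, 3.40 at 10°C, and 0.175, 0.121 and 0.0642 on days 1, 3 and 5 at 4°C, while *ugt-24*, with an FPKM of 0.591 at 20°C, 0.656 at 10°C, and 3.12, 2.76 and 3.09 on days 1, 3 and 5 at 4°C, was the one family member higher by at least 2-fold. Of 56 C-type lectin genes, 35 (62.5%) were lower and 6 (10.7%) higher, against 40.4% and 20.5% of all genes. As 10 of the 56 passed the filter only through the warm columns and 3 only through 4°C, the filter favoured the lower side. Of the 43 C-type lectin genes measured in both groups, 25 were lower and 3 higher. *clec-1* had an FPKM of 39.1 at 20°C, 25.7 at 10°C, and 4.75, 2.26 and 1.54 on days 1, 3 and 5 at 4°C. Aspartic and cysteine proteases, which digest bacteria in the gut, were lower in 12 of 21 genes and higher in *asp-17* alone, with *asp-2* at an FPKM of 35.4, 25.4 and 17.95 on the 3 days at 4°C, against 166 at 20°C and 126 at 10°C.

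Collagens, the structural proteins of the cuticle, were lower in 57 of 84 measured genes and higher in 1, with 14 and 0 by at least 2-fold and a median log2 difference of -0.97. Of the 71 that reached an FPKM of 1 in both groups, 46 were lower and 1 higher. *col-103* had an FPKM of 48.0 at 20°C, 36.6 at 10°C, and 7.78, 3.42 and 1.72 on days 1, 3 and 5 at 4°C. *col-167* to *col-170* lie next to each other within 9.12 kb (chrX:6323488-6332611) and had gaps between 1.29 and 1.417 (*col-169*), but these genes are similar in sequence and reads may be shared among them. *col-119*, the one higher collagen, had a gap of only 0.06. A wide range in FPKM was seen in *pud-1.1* and *pud-1.2*, near-identical genes named for higher protein levels in *daf-2* mutants and chosen after their values were seen, where *pud-1.1* had an FPKM of 936 at 20°C, 629.7 at 10°C, and 271, 16.1 and 9.98 on days 1, 3 and 5 at 4°C. The groups were just over 2-fold apart on day 1, and the values on days 3 and 5 were far lower.

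Markers of the intestine moved with these families. Of 9 measured intestinal markers, 6 were lower at every day and none higher, and their summed FPKM was 769 at 20°C, 716 at 10°C, and 613, 534 and 420 on days 1, 3 and 5. *pept-1*, the peptide transporter of the gut, had an FPKM of 14.2 at 20°C, 14.3 at 10°C, and 3.51, 2.01 and 1.24 on days 1, 3 and 5 at 4°C, whereas *act-5*, the actin of the microvilli, overlapped between the groups. Of 8 hypodermal markers, 3 were lower and none higher, and among 10 body wall muscle markers 3 were lower and 1 higher. Lower members made up 66.7% of the intestinal, 37.5% of the hypodermal and 30% of the muscle markers, against 40.4% of all genes. Of the hypodermal markers, 2 passed the filter through the warm columns alone, and 1 of the other 6 was lower. Whether the share of RNA from the intestine accounts for the differences in fat metabolism and detoxification genes was not tested.

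Several genes of the early embryo were lower. *pes-10*, one of the first genes that the embryo transcribes, had an FPKM of 6.98 at 20°C, 4.34 at 10°C, and 1.15, 0.759 and 1.18 on days 1, 3 and 5 at 4°C. *sdz-28*, from a set of zygotic genes that depend on SKN-1, had an FPKM of 6.87 at 20°C, 2.54 at 10°C, and 0.437, 0.318 and 0.409 on days 1, 3 and 5 at 4°C, and *sdz-30* had an FPKM of 13.98 at 20°C, 6.57 at 10°C, and 0.611, 0.327 and 0.398 on days 1, 3 and 5 at 4°C. In these genes the level at 10°C was already below that at 20°C, and the level on day 5 was not the lowest of the cold days. Of 20 measured sdz genes, a group chosen after the values were seen, 15 were lower and 3 higher, with 10 and 2 by at least 2-fold. Of all genes, 40.4% were lower and 20.5% higher. As 15 of the 20 sdz genes passed the filter through the warm columns alone, the filter favoured the lower side. Among the 4 sdz genes that reached an FPKM of 1 in both groups, 1 was lower and 2 higher, so no direction is read from the family. The 10 embryonic markers include *pes-10* and *sdz-28*. Of these, 4 passed the filter, 3 of them through the warm columns alone, and no direction is read from their number. The summed FPKM of the 4 was 16.0002 at 20°C, 8.25 at 10°C, and 2.16, 1.41 and 2.21 on days 1, 3 and 5.

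Genes of ubiquitin ligase adaptors stood on both sides. Of 120 measured F-box genes, 58 (48.3%) were lower and 27 (22.5%) higher, near the 40.4% and 20.5% of all genes. Of these F-box genes, 48 passed the filter only through the warm columns and 13 only through those at 4°C. Of the 59 that reached an FPKM of 1 in both groups, 19 were lower and 17 higher, against 3630 and 1794 of all 9331 such genes. Of 19 genes of the Skp1-related skr family, counted after their values were seen, 10 were lower and 3 higher. Among the 18 skr genes measured in both groups, 10 were lower and 2 higher. The genes *skr-8*, *skr-9*, *skr-10* and *skr-12*, which belong to ubiquitin ligase complexes, had gaps of 1.59, 1.83, 1.89 and 1.2196, and *skr-9* had an FPKM of 17.6 at 20°C, 8.66 at 10°C, and 2.23, 1.53 and 2.37 on days 1, 3 and 5 at 4°C. These copies are alike and their reads may be shared. *skr-5* was higher, with an FPKM of 0.142 at 20°C, 0.579 at 10°C, and 2.43, 3.71 and 1.69 on days 1, 3 and 5 at 4°C (gap 1.398). Of the F-box subfamilies, 32 fbxb genes passed the filter, 29 of them through the warm columns alone, so the filter favoured the direction of the 30 that were lower. Of the 59 measured fbxa genes 16 were lower and 19 higher, and of 29 fbxc genes 12 were lower and 8 higher. Among those measured in both groups, 10 of 39 fbxa genes were lower and 10 higher, and 7 of 17 fbxc genes were lower and 7 higher. Both subfamilies were counted after the values were seen. *fbxb-103* had an FPKM of 3.02 at 20°C, 1.43 at 10°C, and 0.275, 0.241 and 0.285 on days 1, 3 and 5 at 4°C. Of 33 MATH and BATH domain genes, 18 (54.5%) were lower, 6 by at least 2-fold, and 5 (15.2%) were higher, none by as much. As 6 of the 33 passed the filter through the warm columns alone, the filter favoured the lower side. Of the 27 MATH and BATH domain genes measured in both groups, 12 were lower and 5 higher. The number of embryos carried by the animals was not given for the samples, and its part in these values was not tested.

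Genes of the adult germ line stood mostly within 2-fold. Of 33 eggshell and oocyte genes, 21 were lower and 6 higher at every day, none by at least 2-fold, and *glp-1*, the Notch receptor of germline stem cells, had the largest gap among them, 0.93, with an FPKM of 63.4 at 20°C, 67.1 at 10°C, and 33.2, 27.3 and 25.4 on days 1, 3 and 5 at 4°C. Of 10 germline markers, 5 (50%) were lower and 2 (20%) higher, against 40.4% and 20.5% of all genes. Their summed FPKM stayed between 1169 and 1325. In the 4 measured sperm markers the groups overlapped. Of 13 genes of yolk proteins and of their control and uptake, 7 were lower at every day, among them 4 of the 6 genes of the yolk proteins themselves, which are made in the intestine. *vit-3*, one of these, had an FPKM of 2027 at 20°C, 1924 at 10°C, and 1775, 1244 and 613 on days 1, 3 and 5 at 4°C, so that its gap was only 0.12 despite the low value on day 5.

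Small gaps in one direction were shared by most members of a few large gene sets. Of 80 cytosolic ribosomal protein genes, 55 were higher and none lower at every day (74 and none with centred columns), none by at least 2-fold, with a median log2 difference of 0.39. *rps-8* had an FPKM of 2065 at 20°C, 2075 at 10°C, and 2655, 3210.0 and 4164 on days 1, 3 and 5 at 4°C, increasing in value with time. Of 33 proteasome genes, 24 were higher and none lower, with a median of 0.23, and *rpt-4* had an FPKM of 126 at 20°C, 120.4 at 10°C, and 142, 160.0 and 186 on days 1, 3 and 5 at 4°C. Of 71 histone genes, 56 were higher and 3 lower, with a median of 0.54, but their copies are near-identical and are not separate measurements. Of the 12 genes of the mitochondrial genome 7 were higher and none lower. Of 71 mitochondrial ribosomal protein genes, 6 (8.45%) were higher and 14 (19.7%) lower, against 20.5% and 40.4% of all genes. In 51 of the 71 the groups overlapped. With centred columns 14 were higher and 1 lower.

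Neuropeptide and insulin-like genes were higher in 64 of 92 and lower in 4, by at least 2-fold in 2 and none, with a median log2 difference of 0.55. Of the 75 that reached an FPKM of 1 in both groups, 52 were higher and 3 lower. *ins-3*, an insulin-like peptide, had an FPKM of 0.683 at 20°C, 0.730 at 10°C, and 1.82, 2.19 and 2.98 on days 1, 3 and 5 at 4°C, and *nlp-48* had an FPKM of 0.258 at 20°C, 0.245 at 10°C, and 0.633, 1.43 and 1.34 on days 1, 3 and 5 at 4°C. Their levels were low in every column. Of 9 neuronal markers, 3 (33.3%) were higher and 1 (11.1%) lower, against 20.5% and 40.4% of all genes. Their summed FPKM was 101.1 at 20°C, 104.4 at 10°C, and 127, 137 and 128 on days 1, 3 and 5. The part of the neuronal share of RNA in the neuropeptide values was not tested.

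**Figure D5:**
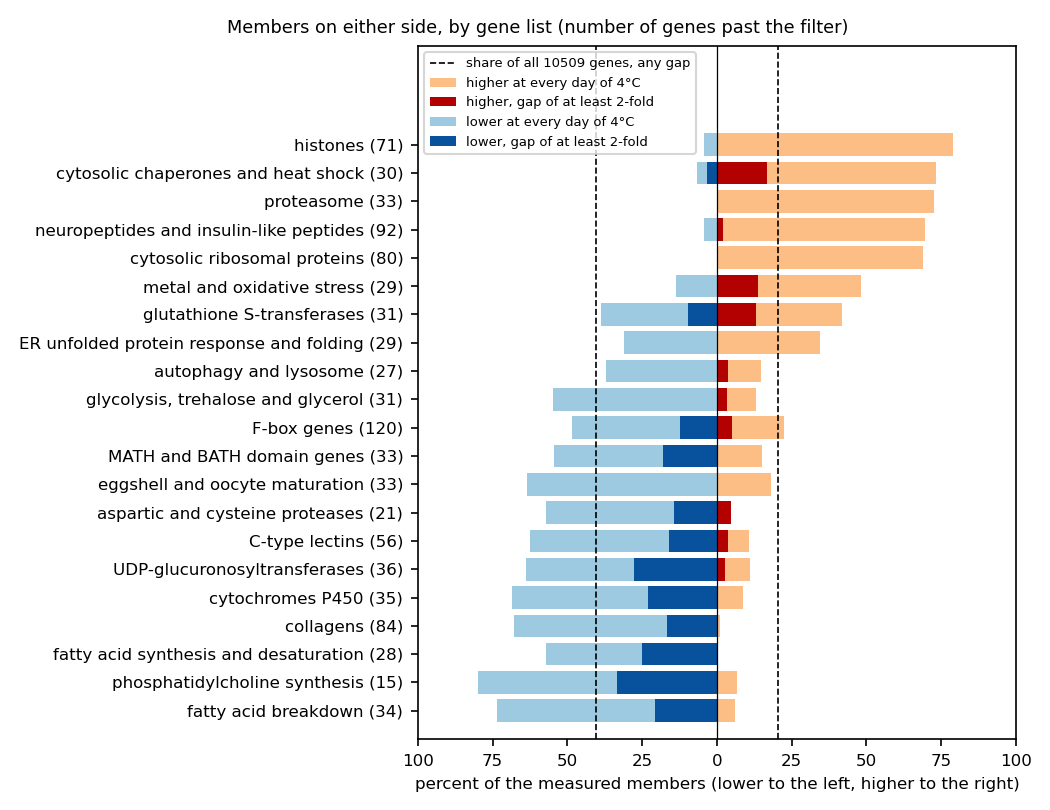
Share of the measured members of 21 gene lists that were higher (right) or lower (left) at every day of 4°C, with the share that had a gap of at least 2-fold in the darker colour. Dashed lines mark the shares of all 10509 genes, 20.5% higher and 40.4% lower, and the bars of the fat metabolism, cytochrome P450 and collagen lists reach beyond the left one.

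The sets were also described by length, exons, names and chromosome, which the rule did not use. The 284 higher genes had a median of 845.5 exon bases and 3 exons, against 1220 and 5 over all genes, and 63.7% were known by a sequence name alone, against 39.9%. The 443 lower genes had a median of 1093 exon bases and 5 exons, and 45.6% had a sequence name alone. Chromosome V held 29.9% of the higher and 24.8% of the lower genes, against 18.1% of all, and chromosome I held 8.45% and 9.03%, against 17.1%. By the FPKM that the rule itself used, both sets lay at low levels, with a median highest FPKM of 8.79 and 3.35, against 14.5 over all genes, and low levels go with wider ranges on a log scale.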

How the data were processed

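The study measured total RNA in 10 samples, 2 replicates of each of 5 conditions. The authors processed the reads with the ORFik pipeline, in which adapters were stripped with fastp (0.23.4), contaminants such as rRNA were filtered and reads were mapped with STAR (2.7.11b) to WBcel235, and expression was estimated with DESeq2 (1.42.1). The authors deposited FPKM values for 31865 transcripts, in 1 column per condition. Whether and how replicates were pooled and whether counting used strand are not given in the sources used here. 1 further column, for 25°C, belongs to no sample and was not used. 

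Deposited FPKM values times the exon length (Ensembl release 115) gave whole reads for 100% of the values in each column (tolerance 0.01). Because overlapping transcripts share reads, a read can count more than once in a column total. The totals were not compared with the sizes of the sequenced libraries. From these reads came 95% Wilson limits and the floor of 3 counts, which cover counting error only. The planned limma fit needed replicate columns and was not made, so there are no p-values. A gene took its transcript with the highest mean FPKM, the filter was an FPKM of at least 1 in any column, and the pseudocount was 0.1. The procedure was tested on simulated data. The planned search of promoters was not run, because promoter sequences were not used here.

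Named genes were the 15 largest gaps in each direction among genes with at least 100 reads in all, the genes the paper names, up to 4 members with the largest gap in each direction of each list or family described, and members of runs of at least 3 neighbours with a gap of at least 2-fold. Of the genes the paper names, *ZC168.2* was below the filter. Other genes were named after their values were seen, among them further members of the lists, *act-5*, *rpt-4* and *vit-3*. Members, lists and alternatives were chosen with earlier results of these data known. The analysis was done in Python 3.11.15 (pandas 2.3.3, numpy 2.4.6, matplotlib 3.10.9).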

Additional observations from a re-analysis of the deposited data

How the results depend on the processing

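No paired analysis was possible because each condition has 1 column with no replicate number. The pseudocount cannot change the order of the values, and so leaves the counts of any gap as they are. Counts with a gap of at least 2-fold depended on it, with 165 higher and 178 lower genes at a pseudocount of 1 against 284 and 443 at 0.1. A filter at an FPKM of 5 gave 180 and 158 such genes, and no filter gave 3284 higher and 6615 lower genes of any gap. A limit of 1.5-fold gave 460 and 952 genes, and a limit of 4-fold 99 and 81. Leaving out the 10°C column gave 692 lower genes with a gap of at least 2-fold, and leaving out day 1 gave 963, against 443. The other alternatives (sums over transcripts, centred columns, and leaving out 20°C, day 3 or day 5) kept these counts within 1.5 times. Centring kept all 284 higher and 389 of the 443 lower genes. Of 49 named genes past the filter, only *hsf-1* lost its side, with a gap of -0.17 in centred columns, while the overlaps of *fat-3*, *fat-4* and *R02D3.8* became gaps of 0.07, 0.09 and 0.02 upward in centred columns, and that of *fat-4* 0.04 in sums over transcripts. With a pseudocount of 1 the gaps of 30 of the 49 moved beyond their counting limits, *fbxa-163* for example to 4.24, and none turned. The spread between replicates is unknown and limits all counts. Counting error limits the small gaps, and 9 of the 284 and 5 of the 443 genes had under 100 reads in all columns together.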
